A study of Arabidopsis thaliana with 8 samples.

Results

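The transcripts described here were those with a strong signal in the root and a very weak one in the shoot of Arabidopsis thaliana. A member was a probe set, the group of short probes that stands for a transcript on the array, with a signal of at least 1000 on all 4 root arrays and at most 100 on all 4 shoot arrays. The rule gave 195 members, or 0.857% of the 22746 probe sets other than the 64 Affymetrix controls. By the platform annotation, 111 of the members name 1 gene, 7 name several and 77 name none, and single genes are named below from the 111 only. The members were chosen by their signals on all 8 arrays, so that the difference between root and shoot is given as a description and supports nothing.

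The study asked how Arabidopsis answers to iodine at the transcript level. Plants of 3 weeks grown in hydroponics received NaI, KI or KBr at 10 µM for 48 h, or no added salt as the control, and roots and shoots (leaves in the labels, rosettes in the methods) were hybridised separately to ATH1 arrays. All plants, those of the control included, grew in a base solution prepared without added iodine, for which the labels give 8 nM iodine as a contaminant and the methods a content under a detection limit of 8 nM. The 4 root samples (NaI, KI, KBr, control) and the 4 shoot samples had 1 array each, made from a pool of 3 plants, and no replicate array was used. No spread between replicates can be given, no test was run, and every count or fold below describes these arrays. Root RNA was extracted with a commercial kit and rosette RNA by another method according to the methods, although the labels give 1 protocol for all samples, and organ and extraction cannot be told apart.

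Signals are MAS5 intensities on a linear scale, brought by the authors to a common mean on each array. Over all probe sets used, the medians of the 8 arrays lay between 168 and 193, and between 58.5% and 61.7% of the probe sets reached 100 on an array. Probe sets differ in how strongly they bind their transcript, so an order of signals is not an order of transcript numbers. A signal of at most 100 is a weak signal and does not show that the transcript is missing. In whole organs, fewer cells of a type and less RNA per cell cannot be told apart.

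The root takes up water and mineral ions, holds the plant in the soil and meets the microbes that live there. Its outer cells form hairs, its endodermis seals the central vascular cylinder with a lignin band and later with suberin, and its growing cells loosen and rebuild their walls. Secreted proteins serve much of this work. Class III peroxidases are secreted haem enzymes that use hydrogen peroxide to cross-link wall phenolics and extensins or to form reactive oxygen, extensins are hydroxyproline-rich proteins of the wall, and germin-like proteins, jacalin-type lectins, defensins and PR-1-like proteins belong to families known from defence.

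**Figure D1:**
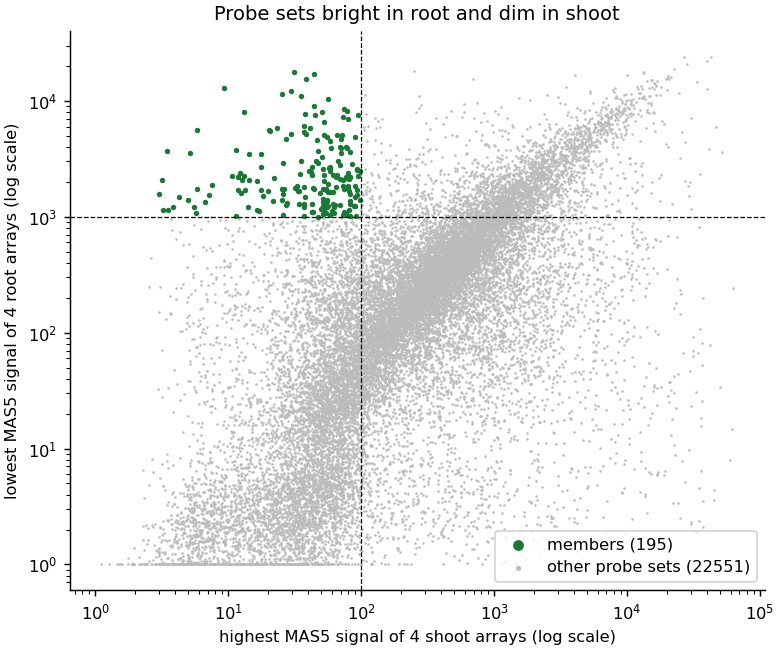
Lowest signal of the 4 root arrays (y axis) against the highest signal of the 4 shoot arrays (x axis), both MAS5 intensities on log axes, for the 195 members (green) and all other probe sets (grey). Dashed lines mark the rule at 1000 and 100, and signals under 1 are drawn at 1. The members occupy the upper left corner, with lowest root signals of at least 1000 and highest shoot signals of up to 98.8.

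The label of the organs was checked against leaf photosynthesis genes. Of 30 genes of light harvesting and the Calvin cycle, 5 were named alone by a probe set (RCA, LHCB4.1, LHCB4.2, SBPASE and PRK), and their summed signal was 231, 205, 368 and 373 on the NaI, KI, KBr and control root arrays, against 100097, 112136, 102502 and 113453 on the shoot arrays in the same order. No marker was above 214 on any root array, and none of the 5 was a member. The root arrays thus carried little signal of these leaf genes.

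The members lay high on the root arrays. The geometric mean of a member's 4 root signals was between 1084 and 19346 with a median of 2666, and 31 members were at or above 5000 and 8 at or above 10000 on all 4 root arrays. The lowest position of any member on any root array was the 84.6th percentile. The median member had a signal of 2490, 2536, 2890 and 2625 in root with NaI, KI, KBr and no salt, against 23.9, 27.8, 17.7 and 18.6 in shoot. Single shoot signals lay between 0.598 and 98.8, and 95 members stayed at or below 50 on all 4 shoot arrays. The lowest root signal was at least 11.2 times the highest shoot signal in every member. Shoot signals this weak were not shown to be above background, so members are not ranked by that ratio.

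The rule's limits cut through a continuous range, shown here by the nearest genes named alone. Unnamed members also stood near the limits, 1 of them with a lowest root signal of 1004. Just inside the root limit were the peroxidase gene At5g15180 with a lowest root signal of 1006, At4g25090, which encodes the NADPH oxidase RBOHG, with 1020, and the uclacyanin-like copper protein gene At3g60270 with 1037. Just outside it were At3g46270, At2g39430 and At1g78050 (PGM), with lowest root signals of 998, 986 and 982. Just inside the shoot limit were At5g05790, a MYB-like gene, with a highest shoot signal of 98.8, the receptor-like kinase gene At5g59680 with 92.9 and the extensin-like gene At1g26240 with 92.5. Just outside it were At1g51890, At3g29970 and the lectin gene JAL33, with highest shoot signals of 100.2, 101.6 and 102.3.

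Among the 25 named genes with the highest mean root signal, 7 encode class III peroxidases, 4 of them within the first 10. These 25 reached down to rank 48 among all members, because unnamed probe sets stood between them, and none was above 82.0 on a shoot array. In 6 of them the root arrays were at least 2-fold apart, where 28.7% of all members were. Of all probe sets with at least 1000 on all root arrays, 7.26% were. In 5 of the 25 the root arrays were within 1.25-fold, where 12.8% of all members and 44.1% of those probe sets were. The first was At4g33720, of the CAP superfamily to which the pathogenesis-related protein PR-1 belongs, with root signals of 17552 with NaI, 19730.4 with KI, 22109 with KBr and 18296 in the control, against 31.2, 2.85, 4.03 and 5.16 in shoot, where shoot signals here and below follow the same order of treatments. At1g26250, a proline-rich extensin-like gene, followed at 17604 with NaI, 21068 with KI, 21365 with KBr and 17118 in the control in root, against 42.4, 43.9, 15.4 and 12.3 in shoot. The 2 genes differed by less in their means than each did between its own root arrays. At4g15390, whose product is an acyltransferase of the HXXXD type, stood at 15411 with NaI, 16029.8 with KI, 18302 with KBr and 17782 in the control in root, against 38.7, 10.1, 3.14 and 5.20 in shoot.

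The peroxidases filled much of the top of the order. At3g01190 was the brightest, at 14137 with NaI, 12901 with KI, 18119 with KBr and 17742 in the control in root, against 1.64, 5.89, 2.65 and 9.31 in shoot. At4g30170 kept to a narrow range of root signals, 11915 with NaI, 11037 with KI, 11511 with KBr and 12916 in the control, against 4.37, 35.0, 5.68 and 3.52 in shoot. At4g26010, which is known from root hairs, had 8352 with NaI, 7968 with KI, 13529 with KBr and 12523 in the control in root, against 6.26, 12.6, 1.37 and 13.1 in shoot, and both iodide arrays were below the other 2. At5g19890 had 11719 with NaI, 10169 with KI, 11333 with KBr and 8139 in the control in root, against 39.6, 54.8, 24.1 and 78.5 in shoot, and was lowest in the control. The values of At3g03670 were 8724 with NaI, 10466 with KI, 6016 with KBr and 8268 in the control in root, against 13.6, 16.9, 37.0 and 9.32 in shoot, lowest with KBr. For At5g17820 they were 6073 with NaI, 5819 with KI, 9340.1 with KBr and 9224 in the control in root, against 5.82, 6.07, 2.06 and 23.3 in shoot, so that the iodide arrays lay below both others. Prx37 had 8312 with NaI, 7671 with KI, 6063 with KBr and 4492 in the control in root, against 57.9, 48.0, 38.0 and 58.1 in shoot, and its iodide arrays lay above both others.

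**Figure D2:**
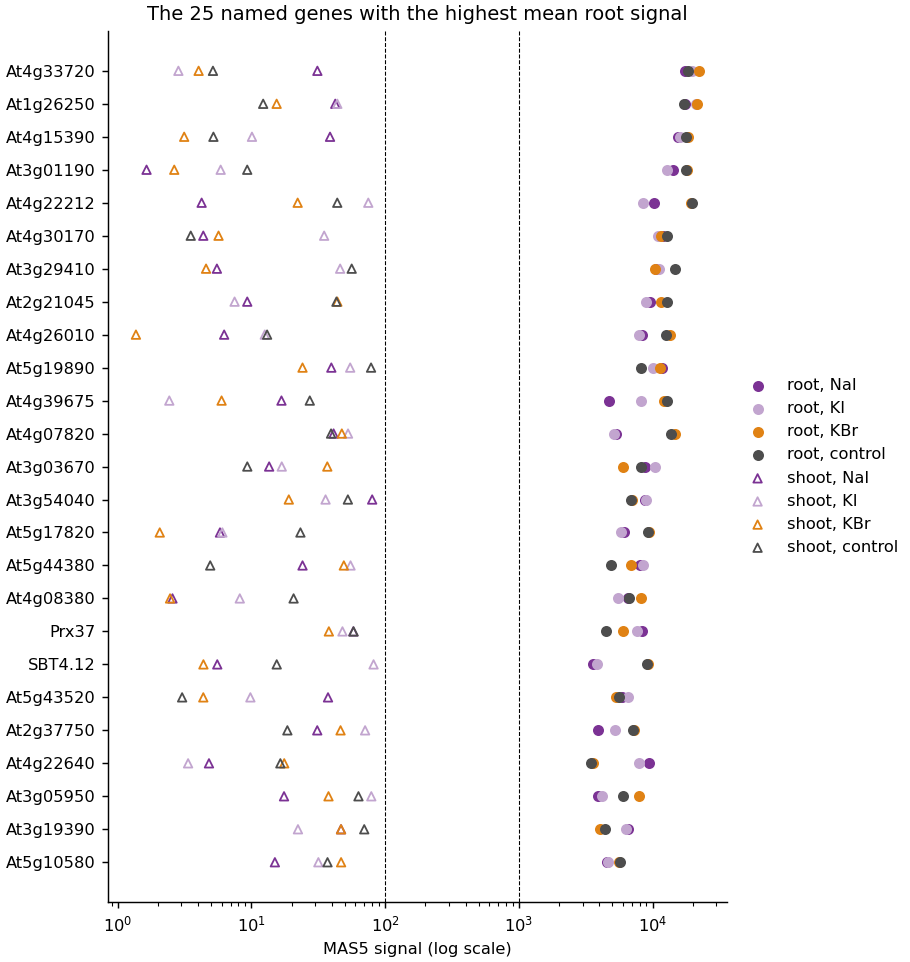
MAS5 signals (log axis) of the 25 named genes with the highest mean root signal, from the highest at the top, on the 4 root arrays (filled circles) and the 4 shoot arrays (open triangles), 1 array per point. Dashed lines mark 100 and 1000, the limits of the rule. All root points are at or above 3473 and all shoot points at or below 82.0. Root points are at least 2-fold apart in 6 of the 25 genes, where 28.7% of all members were. Of all probe sets with at least 1000 on all root arrays, 7.26% were.

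Enzymes of metabolism were also among the brightest. At3g29410, of the terpene synthase family whose members build volatile and other terpenoids, had 10584 with NaI, 11267 with KI, 10352 with KBr and 14639 in the control in root, against 5.52, 46.1, 4.58 and 56.3 in shoot. At2g21045, known as the arsenate reductase HAC1 that lets roots expel arsenic, had 9625 with NaI, 8993 with KI, 11492 with KBr and 12758 in the control in root, against 9.31, 7.49, 43.9 and 43.3 in shoot. At5g44380, related to the berberine bridge enzyme, a class of oxidases that act on alkaloids, sugars and lignin precursors, had 8124 with NaI, 8527 with KI, 6893 with KBr and 4861 in the control in root, against 24.1, 55.1, 49.1 and 4.92 in shoot. The control array was the highest for At3g29410 and At2g21045 and the lowest for At5g44380.

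Small secreted proteins and proteases followed. At4g22212, a defensin-like gene, was at 10179.8 with NaI, 8554 with KI, 19357 with KBr and 19682 in the control in root, against 4.25, 74.9, 22.2 and 43.9 in shoot, with both iodide arrays well below KBr and control. At4g07820, which like At4g33720 encodes a CAP protein, was at 5364 with NaI, 5115 with KI, 14781 with KBr and 13740.4 in the control in root, against 41.2, 52.8, 47.5 and 39.4 in shoot, and was among the genes with iodide arrays at least 2-fold below the rest. At3g54040, a PAR1 protein gene, had 8824 with NaI, 8944 with KI, 7063 with KBr and 6954 in the control in root, against 80.0, 35.9, 19.0 and 52.7 in shoot. The germin-like gene At3g05950 had 3941 with NaI, 4175 with KI, 7990.2 with KBr and 6052 in the control in root, against 17.5, 78.9, 37.7 and 63.2 in shoot. SBT4.12, a subtilisin-type serine protease, was at 3598 with NaI, 3835 with KI, 9294 with KBr and 9095 in the control in root, against 5.56, 82.0, 4.38 and 15.5 in shoot. At3g19390, a granulin-repeat cysteine protease, was at 6518 with NaI, 6364 with KI, 4029 with KBr and 4379 in the control in root, against 46.8, 22.3, 46.8 and 69.8 in shoot, and here the iodide arrays were the higher ones.

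Of the remaining 6 named genes in the first 25, At4g08380 encodes another proline-rich extensin-like protein and had 6545 with NaI, 5530.0 with KI, 8268 with KBr and 6711 in the control in root, against 2.57, 8.19, 2.46 and 20.7 in shoot. At5g43520, of the cysteine- and histidine-rich C1 domain family, had 5961 with NaI, 6538 with KI, 5367 with KBr and 5575 in the control in root, against 37.4, 9.83, 4.37 and 3.03 in shoot. The other 4 are named with no role given. At4g39675 was at 4721 with NaI, 8173 with KI, 12256 with KBr and 12736 in the control in root, against 16.8, 2.43, 5.99 and 27.3 in shoot, the only 1 of the 25 in which NaI and KI lay apart by more than 1.5-fold. At2g37750 was at 3929 with NaI, 5220.0 with KI, 7277 with KBr and 7179 in the control in root, against 31.1, 70.9, 46.4 and 18.6 in shoot, with both iodide arrays below the other 2. At4g22640 was at 9458 with NaI, 7975 with KI, 3600.1 with KBr and 3473 in the control in root, against 4.82, 3.36, 17.6 and 16.5 in shoot, more than 2-fold higher with iodide. At5g10580 was at 4602 with NaI, 4638 with KI, 5573 with KBr and 5749 in the control in root, against 15.0, 31.7, 46.9 and 37.1 in shoot, within a narrow range.

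The 111 named genes were sorted by the protein family they encode, from general knowledge and after they had been seen, into 11 classes that took in 80 of them. The largest class was the class III peroxidases with 13 genes, followed by kinases, signalling and regulatory proteins with 12 and metabolic enzymes with 11. Extensin-like and other proline-rich wall proteins had 8 genes and proteins that act on wall polysaccharides and glycosides 7. Secreted proteins of defence-related families, meaning CAP proteins, defensins and germin-like proteins, had 6 genes and C1 domain proteins 6. Proteins related to late embryogenesis abundant (LEA) proteins had 5, lipid-binding and GDSL lipase-like proteins 5, mannose-binding lectins of the jacalin type 4 and proteases 3. The other 31 were placed in no class. Several members have known posts in root development or growth. At4g34600 encodes the peptide CIF2, a signal that checks the sealing of the Casparian strip, and had 1875 with NaI, 1816 with KI, 1719 with KBr and 1408 in the control in root, against 51.8, 10.9, 11.9 and 4.02 in shoot. GH3.17, whose product conjugates auxin to glutamate, had 1359.5 with NaI, 1260.1 with KI, 1619 with KBr and 1235 in the control in root, against 90.5, 27.8, 56.8 and 72.0 in shoot.

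The wall enzymes included XTH18 and XTH19, xyloglucan endotransglucosylases that cut and rejoin wall polymers as cells grow. XTH18 had 2691 with NaI, 3960.5 with KI, 3177 with KBr and 2944 in the control in root, against 12.2, 10.6, 17.7 and 9.17 in shoot, and XTH19 had 2665 with NaI, 2478 with KI, 2273 with KBr and 2116 in the control in root, against 49.6, 69.1, 25.6 and 18.8 in shoot. At2g47550, a pectin methylesterase gene, had 3636 with NaI, 3648 with KI, 2309 with KBr and 1633 in the control in root, against 45.8, 47.4, 35.3 and 58.0 in shoot. Outside these classes, the dirigent gene At4g13580, of a family that steers the coupling of lignin and lignan precursors, had 2439 with NaI, 2451 with KI, 2961 with KBr and 2396 in the control in root, against 2.89, 12.2, 1.92 and 5.06 in shoot. XTH19 and the pectin methylesterase gene were higher on both iodide arrays than on the other 2, and XTH18 and At4g13580 were not.

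The members were compared with 12 gene lists of root biology, which were chosen with earlier results of these data known. Class III peroxidases gave the most members. Of 73 peroxidase genes 55 were named alone by a probe set, 19 of these had at least 1000 on all root arrays and 13 were members, against 111 of the 13513 probe sets that name 1 gene. The 6 bright peroxidase genes that were no members had shoot signals above the limit, from At5g64100, with 106.2 on the KI array as its highest, to PRXR1, with between 26941 and 39970 on the shoot arrays. CAP proteins had 17 named genes and 1 member (At4g33720), germin-like proteins 11 and 2 (At3g05950 and At1g18980), dirigent proteins 11 and 1 (At4g13580), and root hair genes 5 and 2 (At4g26010 and At1g30870). Both root hair members are peroxidase genes and were counted among the 13 as well. At4g07820 was not on the list of CAP proteins. At1g18980 had 4121 with NaI, 4221 with KI, 2596 with KBr and 2452 in the control in root, against 6.88, 41.7, 13.0 and 16.2 in shoot, higher with both iodide salts, the opposite of At3g05950. Of 16 named lipid transfer and hybrid proline-rich protein genes on the list 4 were bright in root and 0 were members, and the 7 named genes of the ER body and PYK10 complex, which holds myrosinase-type glucosidases and lectins, had 4 bright genes and 0 members. The 5 named leaf markers, 2 terpene, 1 Casparian strip or suberin and 1 transporter gene gave 0 members, and no aquaporin was named alone. These counts hold for the genes on the lists. The members At3g29410, At4g34600 and At3g58550, the last of the lipid transfer protein family, were on none of them.

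Stability over the salts was read from the highest over the lowest of a member's 4 root signals. This ratio had a median of 1.57 over the members, an interquartile range of 1.34 to 2.18 and a full range of 1.07 to 12.4. Among the 2643 other probe sets with at least 1000 on all root arrays the median was 1.27. The members were thus less steady over the root arrays than other bright probe sets. In 56 of the 195 members (28.7%) the root arrays were at least 2-fold apart, against 150 of the 2643 others (5.68%) and 7.26% of both together. Within 1.25-fold were 25 members (12.8%), against 46.4% of the others and 44.1% of both together. The rule itself used the root arrays, since a member that fell under 1000 on any of them was left out, and the ratio is bounded by that floor in members of low signal.

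**Figure D3:**
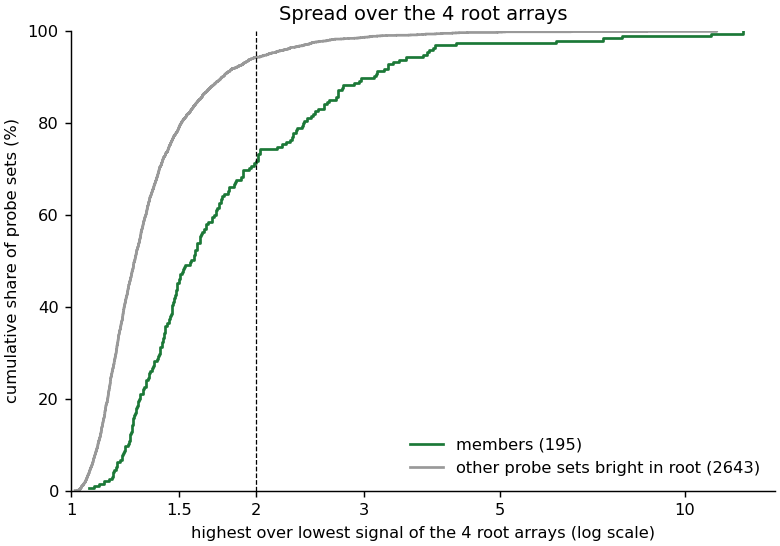
Cumulative share of probe sets (y axis, %) by the ratio of highest over lowest signal of the 4 root arrays (x axis, log scale), for the 195 members (green) and the 2643 other probe sets with at least 1000 on all root arrays (grey). The dashed line marks 2-fold, which 28.7% of the members and 5.68% of the others reached, and the curve of the members lies to the right of the other throughout.

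The spread of the members ran between the iodide arrays and the other 2. All 56 members with root arrays at least 2-fold apart had both iodide arrays on the same side of KBr and control, above in 19 and below in 37. KBr and control were never 2-fold apart in a member, and neither were NaI and KI. Among all 2838 bright probe sets, KBr stood 2-fold or more over control in 2 and under it in 3. The lack of such members thus does not set them apart from other bright probe sets. At 1.5-fold the count was 7 members for KBr and control and 4 for NaI and KI. The counts for NaI and KI, those at 1.5-fold and that of the sides were made for the members only. On the log2 scale KBr over control lay between -0.68 and 0.85 over the members and NaI over KI between -0.79 and 0.42, whereas the mean of the 2 iodide arrays minus the mean of the other 2 ran from -3.40 to 3.03. The median size of the log2 ratio to control was 0.53 with NaI, 0.49 with KI and 0.18 with KBr over the members, against 0.21, 0.20 and 0.12 over the other bright probe sets. The 3 ratios share 1 control array. NaI over KI, which leaves that array out, had a median size of 0.10 in the members and 0.11 in the others.

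**Figure D4:**
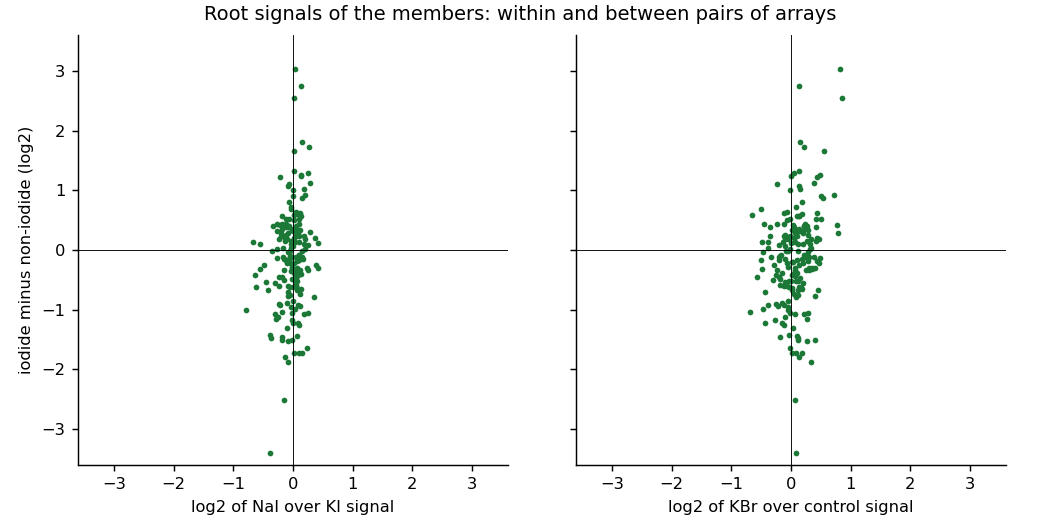
Mean log2 root signal of NaI and KI minus that of KBr and control (y axis, both panels) for the 195 members, against the log2 ratio of NaI over KI (left, x axis) and of KBr over control (right, x axis), each point 1 probe set. The points spread from -3.40 to 3.03 up the page and stay between -0.79 and 0.85 across it.

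Against control alone, 17 members were at least 2-fold higher with NaI and 19 with KI, where 3.14% and 3.28% of all 2838 bright probe sets were. At least 2-fold lower were 29 members with NaI and 28 with KI, where 2.50% and 2.22% of all bright probe sets were. With KBr 0 members were at least 2-fold higher and 0 lower, and of all bright probe sets 0.0705% and 0.106% were. The median log2 ratio over all members was -0.10 with NaI, -0.10 with KI and 0.07 with KBr, against -0.03, -0.06 and 0.01 over all bright probe sets. Members at least 2-fold apart from control were found on both sides with iodide, more of them below than above.

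Both iodide arrays were above KBr and control in 66 members (33.8%), where 26.2% of all bright probe sets were, and below them in 85 (43.6%), where 36.2% were. At 2-fold the members made up more of the calls. Both iodide arrays were at least 2-fold above the higher of KBr and control in 9 members, where 1.41% of all bright probe sets were, and at least 2-fold below the lower of them in 20 members, where 1.34% were. The 20 were 52.6% of the 38 bright probe sets of that kind, and the 9 were 22.5% of 40.

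Among markers of particular cell types, the root hair genes named alone, 5 of the 20 on the list, were lower with iodide. The rest of that list was not seen. Both iodide arrays were below KBr and control in 36.2% of all bright probe sets, and 2 of these 5 genes were bright. The leaf markers given above were lower in sum on the NaI and KI root arrays, with 4 of the 5 genes below both KBr and control. LHCB4.1 was the brightest of them, at 112 with NaI, 106 with KI, 213 with KBr and 214 in the control. The others had root signals between 2.80 and 90.3, not shown to be above background. GSO1, the only gene named alone of 24 on the list of Casparian strip and suberin genes, was slightly higher with iodide. It had 1025 with NaI and 956 with KI, against 849 with KBr and 887 in the control, at most 1.21-fold apart. The 5 root hair genes named alone (At4g26010, At1g30870, EXPA7, EXPA18 and XTH26) were all lower on both iodide arrays, with a sum of 12863 and 12063 with NaI and KI, against 24885 and 23265 with KBr and in the control, and single values between 518 and 13529, none at 0. Without the 2 members among them the sums were 1934 and 1841, against 5893 and 6073. Their part in the result was not tested. At1g30870, a peroxidase gene of root hairs and a member, had 2576 with NaI, 2254 with KI, 5462 with KBr and 4669 in the control in root, against 5.04, 6.44, 6.01 and 13.1 in shoot.

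The 9 members at least 2-fold higher on both iodide arrays include 5 named genes. At3g58550, of the lipid transfer protein family, small secreted proteins that carry lipids and are tied to cutin and suberin, had 9386 with NaI, 8585 with KI, 1397 with KBr and 1277 in the control in root, against 74.0, 82.5, 22.2 and 78.5 in shoot, the widest range of any named member at 7.35-fold. At5g40590, a C1 domain gene, had 5197 with NaI, 4287 with KI, 1540.1 with KBr and 1327 in the control in root, against 25.9, 12.3, 23.4 and 53.9 in shoot. At1g26240, an extensin-like gene, had 5907 with NaI, 5860.3 with KI, 2262 with KBr and 1545 in the control in root, against 5.05, 92.5, 25.3 and 46.7 in shoot. At1g07690 had 4311 with NaI, 3938 with KI, 1744 with KBr and 1742 in the control in root, against 28.8, 54.0, 5.29 and 16.2 in shoot, and At4g22640 is given above. In all 5 genes KBr and control lay within 1.5-fold of each other, as did NaI and KI. The brightest probe set with iodide in this group named no gene, and its root signals were 14881 with NaI, 14496 with KI, 2396 with KBr and 1349 in the control, against 51.8, 5.88, 44.4 and 46.9 in shoot.

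The 20 members with NaI and KI at least 2-fold below the others include 8 named genes. At3g01260, which encodes a galactose mutarotase-like protein, had 1095 with NaI, 1153 with KI, 4631 with KBr and 3677 in the control in root, against 11.8, 73.8, 15.1 and 42.7 in shoot. At5g26280, of the TRAF-like family, had 2079 with NaI, 2095 with KI, 6827 with KBr and 5143 in the control in root, against 1.40, 3.15, 2.44 and 2.85 in shoot. At5g23830, an MD-2-related lipid recognition protein gene, had 1734 with NaI, 2242 with KI, 5689.9 with KBr and 5225 in the control in root, against 2.18, 39.1, 4.39 and 44.1 in shoot. At5g15180, a peroxidase gene, had 1084 with NaI, 1006 with KI, 2385 with KBr and 2593 in the control in root, against 36.9, 6.81, 26.4 and 9.40 in shoot. SBT4.12 and At4g07820, given above, belong here as well. At4g30670 had 2599 with NaI, 3379 with KI, 7909.8 with KBr and 8089.9 in the control in root, against 37.5, 4.31, 17.1 and 51.8 in shoot, and At5g60760 had 1155 with NaI, 1081 with KI, 3797 with KBr and 3589.9 in the control in root, against 17.7, 3.17, 29.1 and 54.8 in shoot, both named with no role given. The 5 of these 8 genes that were placed in a class fell in 5 different classes.

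The other 12 of the 20 named no gene in the table used here. The largest range of all members belonged to 1 of them, at 1713 with NaI, 2242 with KI, 21271 with KBr and 20117 in the control in root, against 13.4, 10.0, 3.87 and 4.62 in shoot, or 12.4-fold. On the KBr array only At4g33720 and At1g26250 among the members were brighter. Another had 1813 with NaI, 2013 with KI, 11165 with KBr and 10681 in the control in root, against 38.2, 64.6, 14.4 and 11.7 in shoot. Of the 77 unnamed members 26 were at least 2-fold apart over the root arrays, of the 111 named genes 27 and of the 7 with several genes 3.

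The steadiest members held their signal within a narrow band. At2g18980, a peroxidase gene, was the steadiest of all, at 2459 with NaI, 2552 with KI, 2465 with KBr and 2625 in the control in root, against 48.8, 58.7, 42.3 and 54.8 in shoot, or 1.07-fold. At4g17280, which encodes a cytochrome b561-type protein of electron transfer at membranes, had 1408 with NaI, 1395 with KI, 1306 with KBr and 1246 in the control in root, against 59.6, 85.5, 33.1 and 87.6 in shoot. At1g49030, of the PLAC8 family, had 1965 with NaI, 1709 with KI, 1814 with KBr and 1826 in the control in root, against 17.7, 3.28, 3.91 and 16.5 in shoot. RBOHG, the gene At4g25090, whose family makes superoxide at the plasma membrane, had 1060.1 with NaI, 1019.5 with KI, 1057 with KBr and 1211 in the control in root, against 4.80, 11.5, 2.30 and 4.26 in shoot. At2g28960, a leucine-rich repeat receptor-like kinase gene, had 1486 with NaI, 1641 with KI, 1683 with KBr and 1796 in the control in root, against 24.5, 3.54, 6.82 and 37.7 in shoot. At4g30170, At4g15390 and At5g43520, given above, were within 1.17-fold, 1.19-fold and 1.22-fold. Without replicate arrays, no order can be read among the steadiest genes.

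Class by class, the genes stood on the iodide arrays as follows, with 3 to 13 genes a class and no test of a difference between classes. Both iodide arrays were above KBr and control in all 5 LEA-related genes, with a median log2 difference of 0.44, and in all 4 mannose-binding lectin genes, with a median of 0.38, where 26.2% of all bright probe sets were above on both, and in none of these 9 were the root arrays 2-fold apart. Among the lectin genes, At1g52060 had 3081 with NaI, 3332 with KI, 2277 with KBr and 2479 in the control in root, against 15.3, 10.4, 18.4 and 66.1 in shoot. Of the LEA-related genes, At5g60530 had the largest difference, 2586 with NaI, 2658 with KI, 1364 with KBr and 1923 in the control in root, against 10.7, 21.8, 1.53 and 5.27 in shoot. In the lipid-binding and GDSL lipase-like class 4 of 5 genes were above on both iodide arrays and 4 were 2-fold apart, with a median of 1.004. Its GDSL genes were At2g23540, at 4115 with NaI, 3754 with KI, 1931 with KBr and 1385 in the control in root, against 17.5, 25.5, 0.780 and 2.45 in shoot, and At1g74460, at 2963 with NaI, 2975 with KI, 1476 with KBr and 1484 in the control in root, against 48.5, 90.1, 3.61 and 7.47 in shoot. The 13 peroxidase genes were divided, 3 above, 6 below and the others mixed, with a median of -0.09. Of all bright probe sets, 36.2% were below on both iodide arrays. The 6 secreted proteins of defence-related families had a median of -0.44, with 1 above, 3 below and 3 at least 2-fold apart, the 11 metabolic enzymes -0.20 and the 3 proteases -0.58. The 12 kinases, signalling and regulatory proteins had a median of -0.01, 4 above and 4 below, and none was 2-fold apart. Over all members the median difference was -0.12, and over all bright probe sets it was -0.03.

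**Figure D5:**
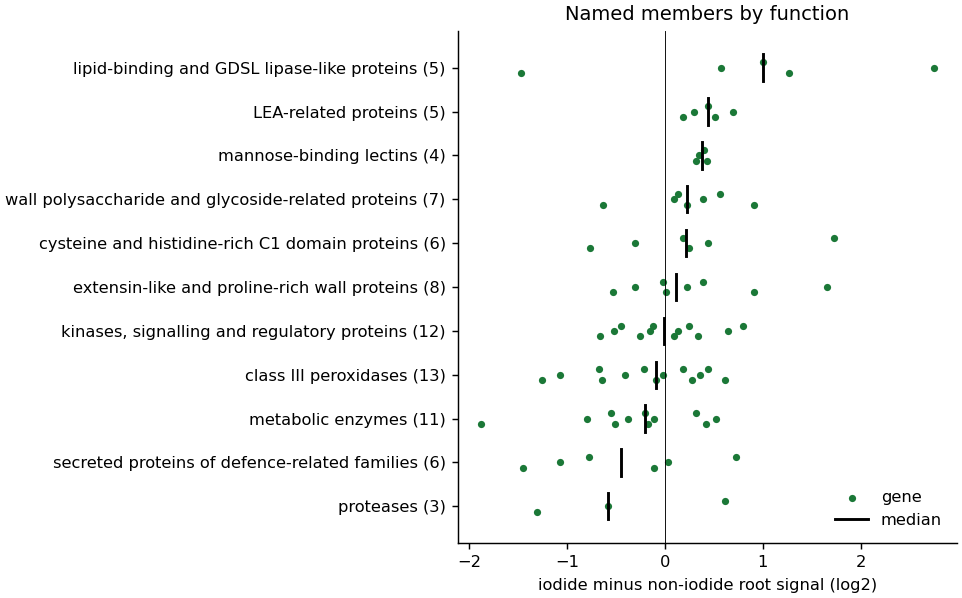
Mean log2 root signal of NaI and KI minus that of KBr and control (x axis) for the 80 named members placed in 11 classes, each point 1 gene and each bar the median of the class, with the number of genes in brackets. All points of the LEA-related and lectin classes are to the right of 0, and the peroxidases and kinases lie on both sides.

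The wider spread of the members was also seen within ranges of root signal. Among probe sets with a mean root signal of 1000 to 2000, 5 of 59 members (8.47%) were at least 2-fold apart, against 36 of 1142 others (3.15%). Between 2000 and 4000 the counts were 29 of 78 members (37.2%) and 74 of 889 others (8.32%), and at 4000 or above 22 of 58 (37.9%) and 40 of 612 (6.54%). In each of the 3 ranges the share was higher in the members. Among all 2838 bright root probe sets, the share at least 2-fold apart was 28.7% with a highest shoot signal of at most 100, 21.1% of 171 between 100 and 300, 7.38% of 515 between 300 and 1000, and 3.88% of 1957 above 1000. The spread in root was thus wider the weaker the shoot signal was, over these 4 ranges. The counterpart in shoot was 321 probe sets with at least 1000 on all shoot arrays and at most 100 on all root arrays. Over the shoot arrays 9 of them (2.80%) were at least 2-fold apart, against 47 of the 2656 other probe sets bright in shoot (1.77%). The share was again the higher one, but both were small. Of the other probe sets bright in root 5.68% were 2-fold apart over the root arrays, so the organs differed there as well.

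The rule asks for 1000 on every root array, and its outcome depended on which of them were used. With the shoot limit kept on all 4 shoot arrays, 315 probe sets met the root limit on the NaI and KI arrays and 294 on the KBr and control arrays, and 195 met both. Of the 294, 83 were under 1000 on both iodide arrays and 16 on 1 of them, and of the 315, 100 were under 1000 on both KBr and control and 20 on 1 of them. NaI and KI were at least 2-fold below the other 2 arrays in 48 of the 83, at least 4-fold in 18 and at least 10-fold in 8. They were at least 2-fold above in 76 of the 100, at least 4-fold in 44 and at least 10-fold in 17. The side was fixed by how the 83 and the 100 were picked, and the picking favours large folds. The same folds were not counted over all probe sets, so these counts do not measure the size of a response. Of the 83, 46 name 1 gene, and the 6 with the largest fold were At5g26130, At1g70880, At1g34510, At5g04730, At5g59650 and At4g12360. At1g34510, another peroxidase gene, had 47.3 with NaI, 70.4 with KI, 1853 with KBr and 1593 in the control in root, against 3.93, 2.36, 1.70 and 2.76 in shoot. At5g59650, a receptor-like kinase gene, had 95.4 with NaI, 118 with KI, 1378 with KBr and 1319 in the control in root, against 64.3, 96.2, 70.2 and 88.2 in shoot. At4g12360, of the lipid transfer protein family, had 215 with NaI, 176 with KI, 2283 with KBr and 2539 in the control in root, against 7.42, 63.2, 24.0 and 8.23 in shoot. Of the 100, 51 name 1 gene, and the 6 with the largest fold, named after their values were seen, were At5g38910, At2g30670, At2g30660, At3g28510, At2g01300 and At4g32950. At5g38910, a germin-like gene of the cupin family, had 17999.8 with NaI, 14867 with KI, 123 with KBr and 132 in the control in root, against 4.58, 30.5, 7.74 and 10.0 in shoot. At2g30660 had 4732 with NaI, 4927 with KI, 75.1 with KBr and 71.4 in the control in root, against 63.5, 44.0, 39.1 and 89.3 in shoot. By the lower signal of the higher pair over the higher signal of the other, the first of the 100 was 112-fold apart and the first of the 83, At5g26130, 90.4-fold. By construction the members leave out every transcript that crossed 1000 between the root arrays.

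The named members were spread over all 5 chromosomes. They made up 0.577% of the probe sets naming 1 gene on chromosome 1 (20 genes), 0.724% on chromosome 2 (16), 0.835% on chromosome 3 (23), 1.12% on chromosome 4 (22) and 0.994% on chromosome 5 (30). In the RefSeq gene table, 11 of the 111 genes stood directly beside another member, in 6 neighbouring pairs. Neighbours were not counted over all genes named alone on the array, so whether this is many or few is not known. The lectin genes At1g52050, At1g52060 and At1g52070 form a row of 3, with log2 differences between iodide and the other root arrays of 0.35, 0.43 and 0.40. At5g60520 and At5g60530, both LEA-related, had 0.51 and 0.69. XTH18 and XTH19 had 0.09 and 0.23. The extensin-like neighbours At1g26240 and At1g26250 were unlike, with 1.65 and 0.01, and At2g47540 and At2g47550, an Ole e 1-type wall protein gene and the pectin methylesterase gene, had 0.23 and 0.91. The probes of close copies can share transcripts, but none of the 111 named probe sets carries the suffix by which the array marks probes that match several transcripts.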

How the data were processed

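Signals of 8 ATH1 arrays were used, 1 for each of 4 treatments in root and in shoot. The authors hybridised pooled RNA and normalised the arrays with MAS5, and they deposited the signals as linear intensity values, whose mean without the highest and lowest 2% of an array is close to 500. No source used here gives the MAS5 settings, and detection calls were not used. The signals were taken without further scaling, and 64 Affymetrix controls were left out.

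The members and the 12 gene lists were chosen with earlier results of these data known, and the protein classes after the members were seen. Any member naming 1 gene could be named; signals of all arrays were given for the 25 brightest, the 8 steadiest, the 8 least steady, those at least 2-fold apart with both iodide salts and up to 4 per list, and up to 6 genes under 1000 with iodide were named. Log2 ratios were taken with no pseudocount. Names came from the platform annotation, and all 111 loci were found in the RefSeq gene table (TAIR10.1), used for chromosomes and neighbours only. Sequence and promoter features were planned and are not reported, since no sequence table was used here. The number of arrays limits the precision, and no SD or p-value was derived from them, since no treatment was repeated and NaI and KI, or KBr and control, are not replicates of each other. Counting by the rule was tested on simulated data, and alternatives covered limits, folds, normalization, left-out arrays and probe sets. Tables were handled with pandas 2.3.3 and numpy 2.4.6 in Python 3.11.15, with scipy 1.17.1, and plots were drawn with matplotlib 3.10.9.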

Additional observations from a re-analysis of the deposited data

How the results depend on the processing

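Of 50 alternative values, 40 stayed within 1.5 times the count (or within 0.1 on the log2 scale for medians) and 10 moved. Direction was not part of this sorting. The medians of the members for each salt against control kept their sign under both other normalizations. All 10 that moved came from another limit or fold, or from fewer arrays, and so follow from their construction. The number of members, 195, was 415 with a root limit of 500, 95 with a root limit of 2000, 95 with a shoot limit of 50 and 369 when the control arrays alone were used. It was 188 after quantile normalization and 184 with equal medians, and all of these were among the 195. Leaving out 1 treatment gave 202 to 223 members. The 56 members with root arrays 2-fold apart were 105 at 1.5-fold and 20 at 3-fold, 53 to 55 under the other normalizations, and 46 to 52 with 1 treatment left out. Those with both iodide arrays above the others numbered 20 at 1.5-fold and 4 at 3-fold in place of 9, and those below 39 and 6 in place of 20. Of the first 25 named genes 21 were also among the first 25 on the control array alone. Probe sets that can match several transcripts were left out, a choice made after seeing the data, which gave 180 members, 49 of them 2-fold apart. No paired analysis was possible because each treatment has 1 array per organ, so that the groups share a single replicate number, and no result here comes from a test. With 1 array per treatment and organ, and without replicate cultures, small ratios cannot be told from array noise.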
